A study of Schizosaccharomyces pombe with 6 samples.

Results

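The genes *ura1*, *ura2*, *ura3*, *ura4*, and *ura5* encode the enzymes of de novo pyrimidine synthesis in fission yeast, and they were taken from the count table by systematic ID (SPAC22G7.06c, SPAC16.03c, SPAC57A10.12c, SPCC330.05c, and SPBC725.15) as 5 of its 6988 features. All 5 passed the filter on low counts, *ura4* through the mutant libraries alone. Poly(A)+ RNA was sequenced from *asp1-H397A aps1*∆ *siw14*∆ *spx1*∆ cells (hereafter the mutant) and from wild-type cells, with 3 biological replicate cultures of each strain. The mutant is labelled as an *h-* haploid with *asp1-H397A* marked by natMX, *aps1*∆ by kanMX, *siw14*∆ by hygMX, and *spx1*∆ by ura4MX. The wild-type is labelled as an *h-* haploid with no other allele given. The study's strain list holds the mutant genotype under another strain number, as *h+*. Both were in vegetative log phase at 30°C in ePMGT, an enriched synthetic medium replete in phosphate, for which the sources used here give no uracil content. The H397A change inactivates the pyrophosphatase of Asp1, Aps1 and Siw14 are the other inositol pyrophosphatases, and Spx1 has an SPX domain and a RING-finger ubiquitin ligase domain. The study's strain list gives *ura4-D18*, a deletion of *ura4*, in the background of its strains, so *ura4* enters the mutant with the *spx1* marker. The wild-type had 0 *ura4* counts in each library, so it depended on uracil from the medium, whereas the mutant carried a copy of *ura4*. The strains thus differ in *ura4* as well as in the other alleles, so any effect of *ura4* cannot be told apart from theirs.

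De novo synthesis builds the pyrimidine ring on aspartate and carbamoyl phosphate, attaches it to phosphoribosyl pyrophosphate (PRPP), and ends in UMP, from which the other pyrimidine nucleotides are made. Ura1 joins carbamoyl phosphate synthase and aspartate carbamoyltransferase in a single polypeptide and carries out the committed first steps. Ura2 is dihydroorotase, Ura3 is the mitochondrial dihydroorotate dehydrogenase, Ura5 is orotate phosphoribosyltransferase, and Ura4 is the decarboxylase that makes UMP from orotidine monophosphate. Cells without Ura4 cannot complete the route and depend on uracil from the medium, which is why *ura4* is used as a selectable marker in this organism.

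The counts summed to between 20305111 and 22690741 in the mutant libraries and between 16593476 and 21436751 in the wild-type libraries. Of the genes labelled as deleted, *aps1* had 279 to 318 normalized counts in mutant libraries against 3433 to 3513 in wild-type libraries, and *siw14* had 65.2 to 108 against 2194 to 2805. *spx1*, which the *ura4* marker replaces, had 1784 to 2154 in the mutant and 5156 to 7119 in the wild-type, a fold of 0.331, so its reads went only in part with the label of a deletion. How much of the *spx1* gene model lies outside the deleted part was not tested. Normalized counts are counts rescaled to a common library size with the TMM factors of edgeR. As a check of the *h-* label, markers of both mating types were read in both strains. Of 6 M cell markers, 5 had every mutant library below every wild-type library (*mfm1*, *mfm2*, *mfm3*, *mam1*, and *mam2*), and *sxa2* overlapped. Among all genes tested, 17.3% had every mutant library below every wild-type library. The M-factor gene *mfm1* had 8.18 to 9.31 normalized counts in the mutant and 108 to 133 in the wild-type, and *mfm2* had 708 to 897 and 2866 to 4322. Of the 2 P cell markers, *map2* had 66.4 to 81.0 in the mutant and 117 to 132 in the wild-type, and *map3* overlapped at 271 to 290 and 252 to 323. Wild-type replicates 1 and 3 differed most among libraries of the same strain (chi-square per degree of freedom of 65.8, against 5.91 to 27.8 in the other pairs). Their TMM factors were 1.08 and 0.936, whereas those of the mutant libraries ran from 0.984 to 0.994.

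*ura1* and *ura3* rose in the mutant by 1.36- and 1.39-fold, and *ura2* and *ura5* had folds of 1.06 and 1.11 that did not pass the test. *ura4* was read only from mutant libraries. Of the 4 genes other than the marker, 2 were higher at an adjusted *P* value of at most 0.05 by edgeR's quasi-likelihood test, where 5.33% of the 5947 genes tested were higher and 7.03% lower by the same rule. At the cutoffs of the study's methods (the same adjusted *P* value, a fold of 2 or more in either direction, and a mean of 100 or more normalized counts in the strain with more), 0 of the 4 were called by edgeR, DESeq2, or limma-voom, where edgeR called 2.09% of all genes tested, 0.37% higher and 1.72% lower. The median log2 fold change of the 4 was 0.30, against 0.00 over all genes tested.

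*ura1*, for the first steps, had 23022, 24511, and 27305 normalized counts in mutant replicates 1, 2, and 3 and 16840, 18139, and 20121 in wild-type replicates 1, 2, and 3. Every mutant library lay above every wild-type library, as it did for 16.4% of the genes tested, with every mutant library below in 17.3%. The log2 fold change was 0.44 (standard error 0.11, 95% interval 0.21 to 0.67, adjusted *P* value 0.0196 from edgeR). *ura3*, for the dehydrogenase, had 12759, 15010, and 15648 normalized counts in the mutant and 9622, 10303, and 11330 in the wild-type. The groups again did not overlap, and the log2 fold change was 0.47 (standard error 0.11, 95% interval 0.24 to 0.71, adjusted *P* value 0.0161 from edgeR). Both intervals lay between no change and a 2-fold rise. The pass of both genes was lost when mutant replicate 2, mutant replicate 3, or wild-type replicate 2 was left out, with adjusted *P* values of 0.0821, 0.133, and 0.114 for *ura1* and 0.0877, 0.106, and 0.0904 for *ura3*. Over all 6 such fits the log2 fold change stayed between 0.37 and 0.51 for *ura1* and between 0.42 and 0.56 for *ura3*.

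*ura2*, for dihydroorotase, had 1659, 1803, and 1906 normalized counts in the mutant and 1535, 1711, and 1818 in the wild-type. The libraries of both strains overlapped over most of their range, and the log2 fold change was 0.08 (standard error 0.10, 95% interval −0.14 to 0.31, adjusted *P* value 0.663 from edgeR). *ura5*, for the phosphoribosyltransferase, had 4793, 5313, and 5689 normalized counts in the mutant and 4154, 4848, and 5189 in the wild-type. These too overlapped, and the log2 fold change was 0.15 (standard error 0.11, 95% interval −0.09 to 0.40, adjusted *P* value 0.413 from edgeR). The upper bounds lie under a 2-fold rise and, for *ura5*, reach close to the rises measured for *ura1* and *ura3*.

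**Figure D1:**
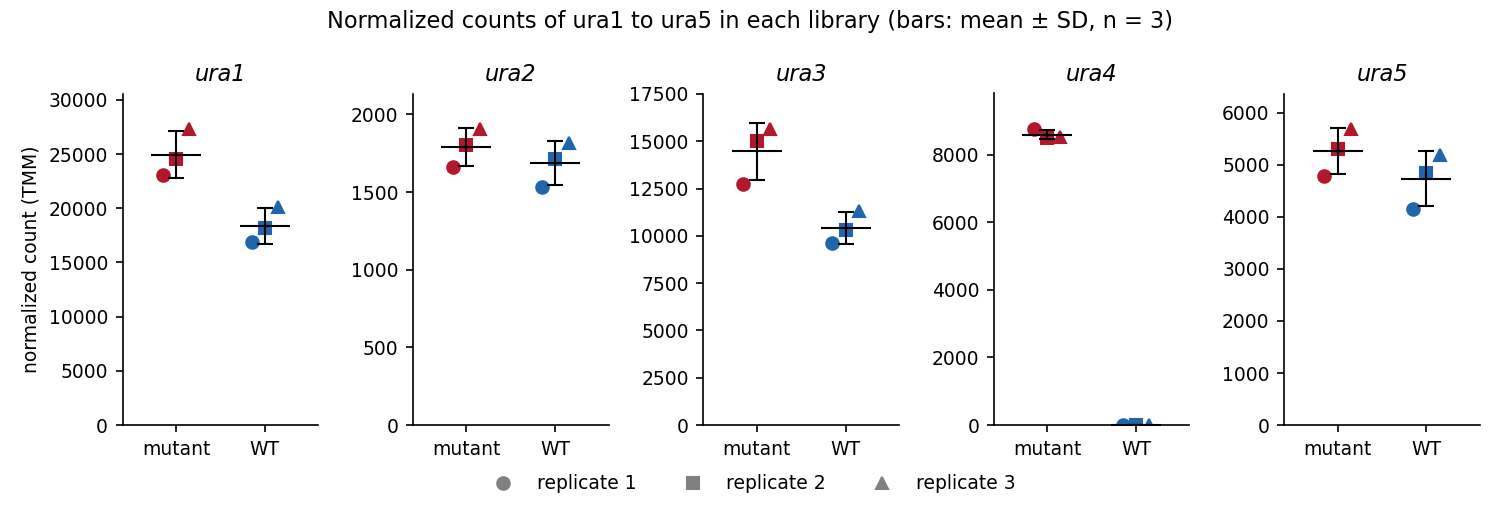
Normalized counts (TMM scale, y axes from 0, a separate scale for each gene) of *ura1* to *ura5* in the 3 mutant libraries (red, left) and 3 wild-type libraries (blue, right), with symbols for replicates 1 to 3 and bars for the mean ± SD. The strains do not overlap for *ura1* and *ura3*, they overlap for *ura2* and *ura5*, and *ura4* is at 0 in the wild-type.

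*ura4*, the marker in place of *spx1*, had 9631, 8309, and 9154 counts in the mutant libraries and 0 in each wild-type library. The mutant libraries thus held 8594 ± 143 normalized counts (SD, n = 3), and the 3 counts that a 0 allows come to a mean of 3.18 normalized counts in the wild-type. With 3 counts taken for each wild-type library, the level was at least 2701-fold higher in the mutant, a bound on counting error alone. This difference was built into the strains and is given as a check of their labels. The coding genes that flank *ura4* in the ASM294v3 annotation were read in both strains. *tam14*, downstream of *ura4*, had 544, 507, and 474 counts in the mutant and 570, 674, and 535 in the wild-type. *new25*, upstream, had 55, 65, and 61 counts in the mutant and 54, 48, and 39 in the wild-type. Neither passed the test (adjusted *P* values of 0.111 and 0.603 from edgeR). The absence of reads from the wild-type libraries thus covered *ura4* and neither of these neighbors.

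Levels can be compared between genes only per length, and RPKM values were computed for this from the counts, the library totals, and the exon lengths of the ASM294v3 annotation. In the wild-type, *ura3* was at 287 ± 2.30 RPKM, *ura5* at 177 ± 8.55, *ura1* at 130.0 ± 2.0, and *ura2* at 57.4 ± 1.32 (SD, n = 3 each). No neighbors in that order overlapped between libraries. In the mutant, *ura4* was at 399 ± 8.60 RPKM and *ura3* at 390 ± 38.9, and these overlapped. *ura5* at 193 ± 15.4 and *ura1* at 173 ± 14.2 overlapped as well, and *ura2* was lowest at 59.6 ± 3.81. Thus *ura2* was the least abundant of the 4 endogenous genes in both strains, and the most abundant of them exceeded it by 6.54-fold in the mutant and 4.99-fold in the wild-type. Among all protein-coding genes with a length, *ura3* stood at percentiles 92.4 to 93.2 in the mutant libraries and 90.5 to 90.9 in the wild-type libraries, and *ura2* at 65.6 to 69.5 and 64.5 to 67.9.

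The marker copy of *ura4* made a transcript level near the top of the route. Per length it was at 1.18, 0.977, and 0.940 times *ura3* in mutant replicates 1, 2, and 3, and at 7.37, 6.58, and 6.24 times *ura2*. Its share of the summed RPKM of the 5 genes was 31.0 to 35.7% in these libraries. The length used is that of the native *ura4* gene model, and the transcript made from the ura4MX cassette may be of another length.

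**Figure D2:**
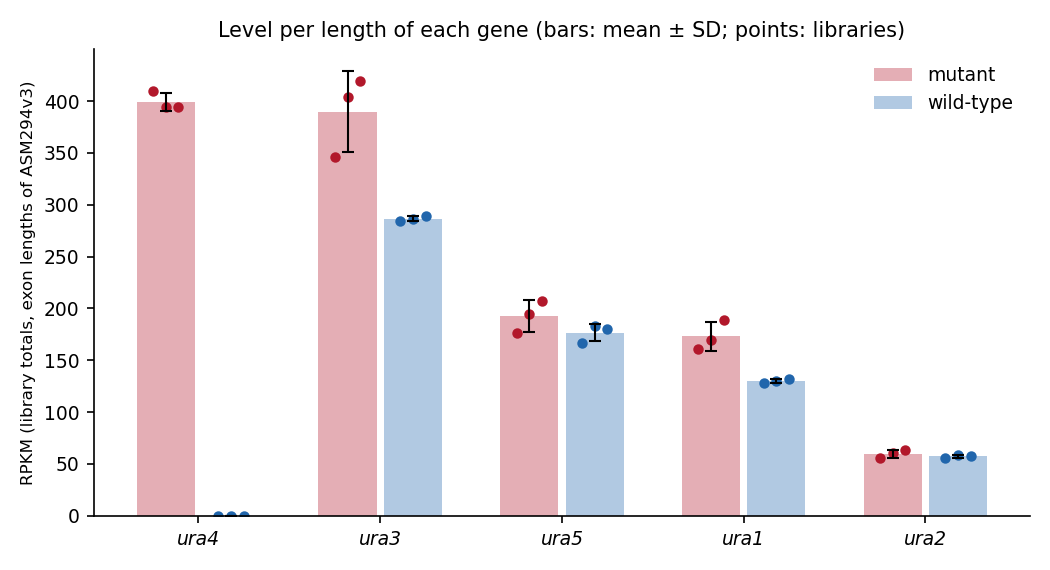
Level per length (RPKM from library totals, y axis from 0) of each gene in mutant (red, left) and wild-type (blue, right) cells, with bars for the mean ± SD and points for the 3 libraries. *ura4* at 399 and *ura3* at 390 RPKM overlap in the mutant, and *ura2* is lowest in the mutant and, but for *ura4* at 0, in the wild-type.

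The 4 endogenous genes were ordered alike among the replicates of each strain on the TMM scale. In each of them mutant replicate 3 had the most normalized counts among mutant libraries and replicate 1 the fewest, and the same was true of wild-type replicates 3 and 1. In RPKM the wild-type order changed for *ura2* and *ura5*. Wild-type replicate 2 was then highest, at 58.7 against 57.3 in replicate 3 for *ura2* and 183 against 180 for *ura5*. *ura4* was highest in mutant replicate 1 and varied least, with a coefficient of variation of 1.66% in the mutant, against 6.94 to 10.5% for the others, where counting error alone gives 0.618 to 2.31%. In the wild-type the coefficients were 8.26 to 11.2% on the TMM scale and 0.803 to 4.84% in RPKM, which is scaled by library totals. With library totals in place of TMM in the test, *ura1* and *ura3* had log2 fold changes of 0.41 and 0.44 and adjusted *P* values of 0.00687 and 0.00895 from edgeR.

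Ratios between these genes within a library need no scaling between libraries. *ura1* was at 2.83 to 2.98 times *ura2* per length in the mutant and at 2.21 to 2.30 times in the wild-type, a difference of 0.36 in the mean log2 ratio. *ura3* was at 6.22 to 6.73 times *ura2* in the mutant and at 4.87 to 5.07 times in the wild-type, a difference of 0.39. Against *ura5*, the differences were 0.28 for *ura1* and 0.31 for *ura3*. In these 4 ratios every mutant library lay above every wild-type library. The ratio of *ura5* to *ura2* also did not overlap but differed by only 0.07. *ura1* was at 0.420 to 0.465 times *ura3* in the mutant and at 0.451 to 0.457 times in the wild-type, which overlapped (difference −0.03, two-sided exact permutation test, *P* value 0.7, adjusted over the 6 ratios 0.7). Each of the other 5 ratios had a *P* value of 0.1 by the same exact permutation test, the smallest that 3 libraries against 3 allow, and 0.12 adjusted over the 6 ratios. This test cannot reach 0.05 with 3 libraries against 3, so the ratios are given as a description.

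**Figure D3:**
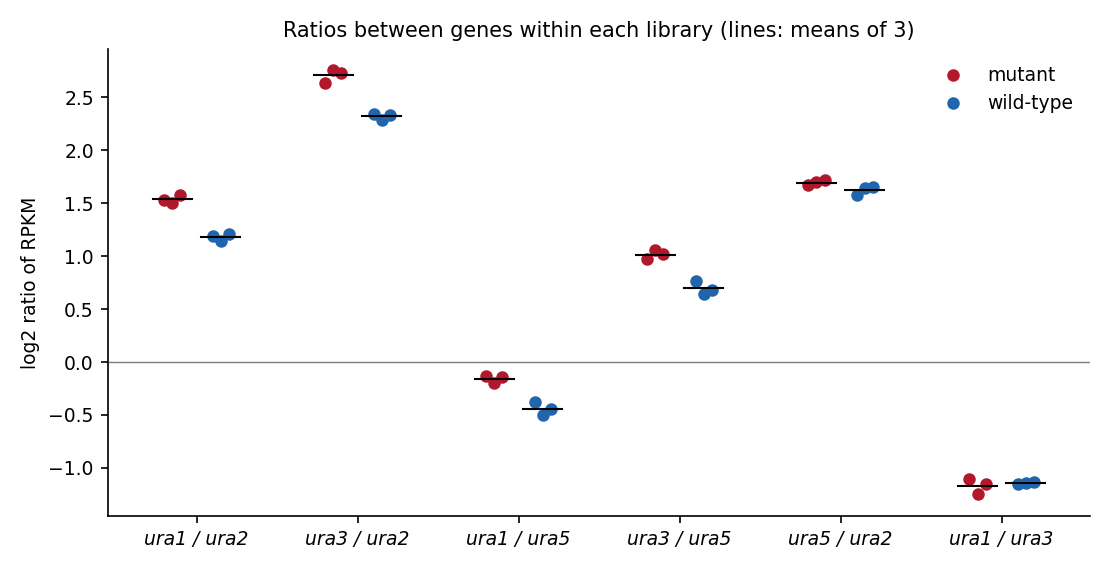
log2 ratio of RPKM between pairs of the 4 endogenous genes in each library, mutant (red, left) and wild-type (blue, right), with lines for the means of 3 libraries. The ratios of *ura1* and *ura3* to *ura2* and *ura5* are higher in every mutant library by 0.28 to 0.39 on average, and that of *ura1* to *ura3* overlaps.

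In the steps that lead from UMP to CTP and to the deoxypyrimidine nucleotides, 9 genes were tested. At an adjusted *P* value of at most 0.05 from edgeR, 1 was higher and 1 was lower, near the 5.33% and 7.03% of all genes tested, and the median log2 fold change was 0.03, with a sign that depended on the scaling and other settings (−0.04 to 0.06 over the alternatives). *cts1*, encoding CTP synthase, was the one that rose, with 18818 ± 1724 normalized counts in the mutant and 13787 ± 1377 in the wild-type (SD, n = 3 each), or 0.45 on the log2 scale (adjusted *P* value 0.0206 from edgeR). *ura6*, encoding the uridylate kinase that takes up the product of Ura4, fell to 4431 ± 135 normalized counts in the mutant, against 5693 ± 511 in the wild-type, a log2 fold change of −0.36 (adjusted *P* value 0.0309 from edgeR). *cdc22*, for the large subunit of ribonucleotide reductase, and *hal3* did not pass, at log2 fold changes of 0.37 and −0.12 (adjusted *P* values of 0.122 and 0.501). The pass of *cts1* was lost without mutant replicate 2, mutant replicate 3, or wild-type replicate 2 (adjusted *P* values of 0.101, 0.129, and 0.115), and that of *ura6* without these or mutant replicate 1 (0.102 to 0.187).

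Purine nucleotide synthesis, which runs beside the pyrimidine route and also draws on PRPP, had a median log2 fold change of 0.32 over 12 genes. Of these, 2 were higher at an adjusted *P* value of at most 0.05 from edgeR and none was lower, against 5.33% and 7.03% of all genes tested. *gua1*, for the IMP dehydrogenase of guanine nucleotide synthesis, rose by 0.40 on the log2 scale (adjusted *P* value 0.0297), and *ade9*, for an enzyme of one-carbon transfer on folate, by 0.47 (adjusted *P* value 0.0481). The pass of *ade9* was also lost without mutant replicate 1, with library totals (adjusted *P* value 0.186), in a fit of protein-coding genes alone (0.121), and with at least 10 counts required in every library (0.0544). *gua2* (0.37) and *ade5* (0.48) did not pass. In 9 of the 12 every mutant library lay above every wild-type library, a pattern that 16.4% of all genes tested showed. The number of the 12 that passed ranged from 0 to 11 over the alternatives, and the median stayed between 0.23 and 0.37. It was 0 without mutant replicate 2, mutant replicate 3, or wild-type replicate 2, 7 with library totals, and 11 without wild-type replicate 3. The number of all genes that passed, in either direction, also moved, from 735 in the main fit. It was 341, 307, and 343 where none of the 12 passed, 977 with library totals, and 1770 without wild-type replicate 3.

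Arginine synthesis shares carbamoyl phosphate as an intermediate but makes its own from Arg4 and Arg5. Of its 8 genes 1 was lower, where 7.03% of all genes tested were, and the median log2 fold change was 0.01. The gene was *arg7*, for argininosuccinate lyase (log2 fold change −0.78, adjusted *P* value 0.00171 from edgeR). *arg3*, for the carbamoyltransferase of that route, was at −0.19 on the log2 scale (adjusted *P* value 0.214). The genes listed for uracil and uridine salvage and uptake went the other way from *ura1* and *ura3*. Not all are given as salvage enzymes. The study's supplement names *urg1* as a GTP cyclohydrolase and links *urg3* to uracil or riboflavin metabolism. Of the 9 genes listed 8 were lower at an adjusted *P* value of at most 0.05 (7.03% of all genes tested). At the cutoffs of the study's methods 6 of these were called lower, where 1.72% of all genes tested were. The median log2 fold change of the 9 was −1.51. The 4 with the smallest *P* values were *uck2*, *urh1*, *urg1*, and *urg2*, at log2 fold changes of −1.76, −2.15, −1.60, and −1.62. The uracil permease gene *fur4* passed with a smaller fall, at −0.46 (adjusted *P* value 0.0263 from edgeR).

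**Figure D4:**
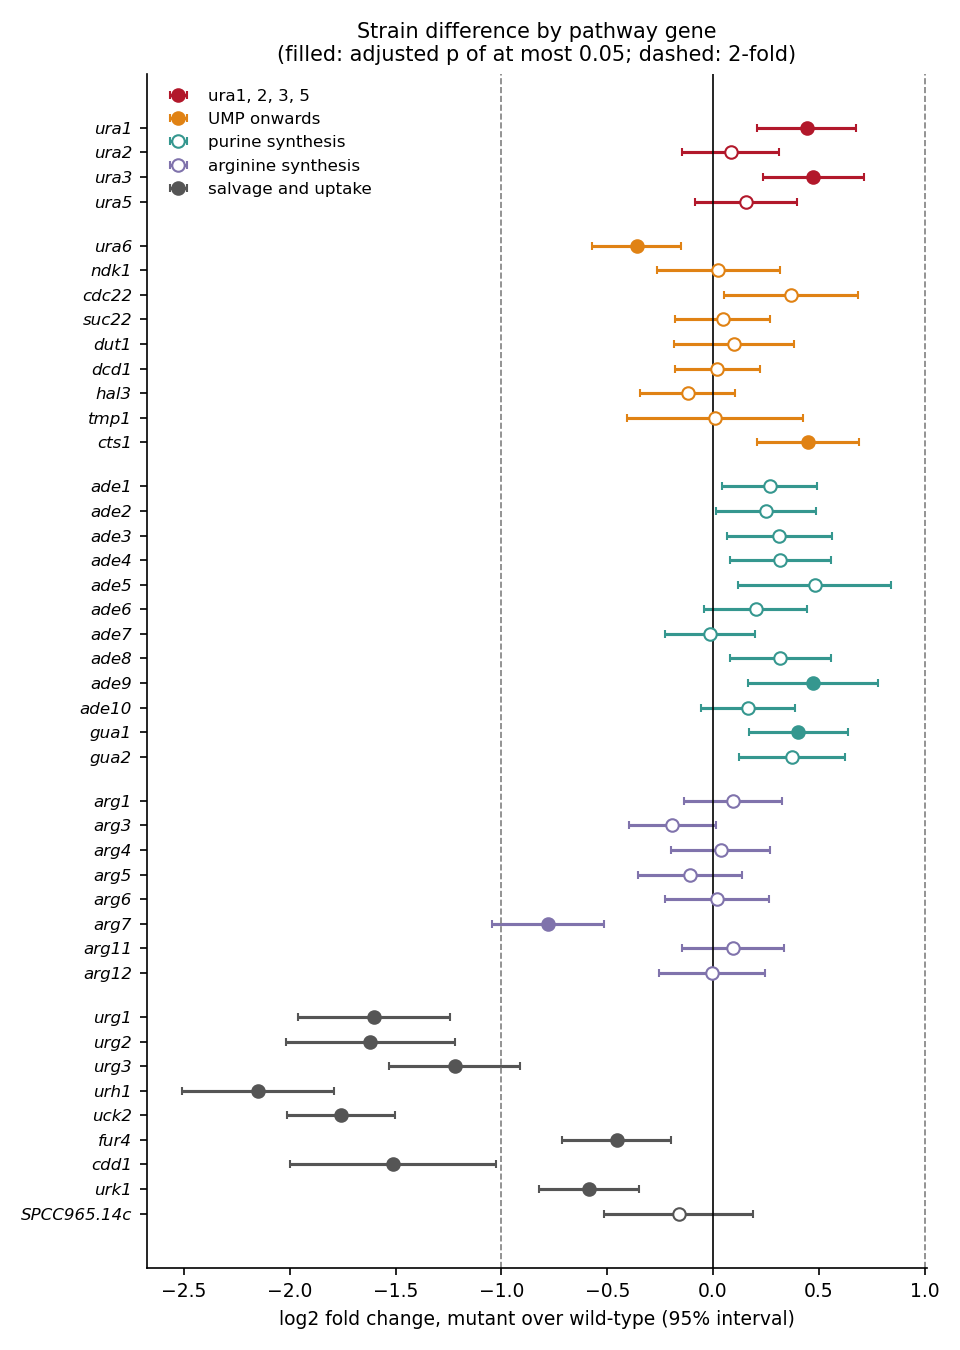
log2 fold change (mutant over wild-type) with its 95% interval from edgeR for the 4 endogenous genes of the route, the steps from UMP onwards, purine synthesis, arginine synthesis, and uracil and uridine salvage and uptake; filled points have an adjusted *P* value of at most 0.05 and dashed lines mark 2-fold. *ura1* (0.44), *ura3* (0.47), and *cts1* (0.45) lie together on the right, and the genes listed for salvage and uptake are spread to the left with a median of −1.51.

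The transcripts whose pattern over the 6 libraries was most like that of each gene were found among 4741 protein-coding genes by Pearson's *r* of log2(normalized count + 1), given as a description because the libraries share strain and scaling. For *ura3* they were *gua1* (0.999), *erb1* (0.998), and *cts1* (0.997). Of these *gua1* and *cts1* encode enzymes of GTP and CTP synthesis, and *erb1* encodes a WD repeat protein. For *ura1* they were *abc1* (0.997), *zrt1* (0.997), and *tcd1* (0.997), annotated as an ABC transporter, a zinc transporter, and a ThiF domain protein. *ura3* followed *ura1* with an *r* of 0.986. For *ura2* they were *ura5* (0.987), *rki1* (0.986), the gene of ribose phosphate isomerase, and *psg2* (0.986). For *ura5* they were *psg2* (0.996) and the translation initiation factor genes *tif306* (0.994) and *tif302* (0.993). *ura2* had an *r* of 0.751 with *ura1* and 0.749 with *ura3*.

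The coding genes next to *ura1*, *ura2*, *ura3*, and *ura5* in the annotation did not pass the test. Next to *ura3*, the log2 fold change was 0.34 for *mia40* (adjusted *P* value 0.271) and 0.33 for *cdc17* (0.187). Next to *ura1*, *kri1* was at 0.34 (0.244) and *ime4* at 0.01 (0.986). Next to *ura2*, *dus3* was at 0.41 (0.115) and *srp2* at 0.03 (0.896), and next to *ura5*, *res1* was at 0.27 (0.0998) and *arg6* at 0.02 (0.938), all from edgeR. Noncoding genes lie across *ura1*, *ura3*, and *ura5* on the other strand in the ASM294v3 annotation and have no row of their own in the count table. The study made its libraries with a directional kit. No source used here says if strand was used in counting, so in these counts reads from the noncoding genes cannot be told apart from those of the 3 genes.

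**Figure D5:**
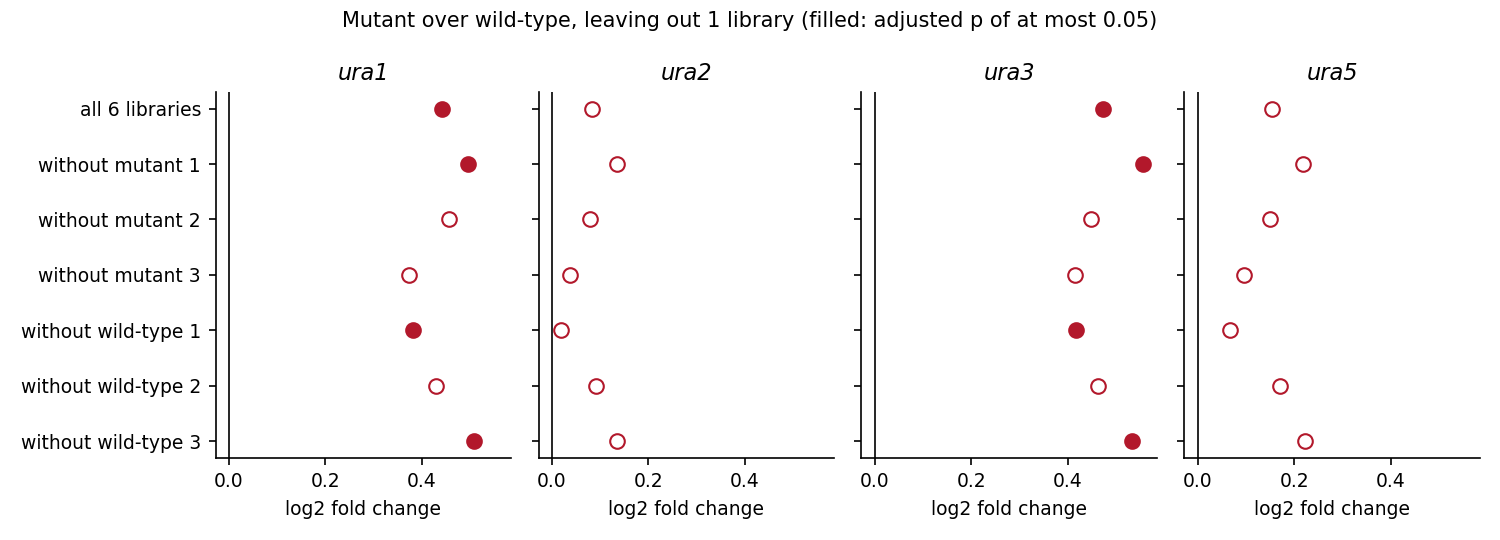
log2 fold change (mutant over wild-type, x axis) of the 4 endogenous genes with all 6 libraries and with each library left out in turn, filled where the adjusted *P* value from edgeR was at most 0.05. All values are above 0, those of *ura1* run from 0.37 to 0.51 and those of *ura3* from 0.42 to 0.56, and both genes have unfilled points in 3 of the 6 omissions.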

How the data were processed

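RNA-seq was analysed for 3 mutant and 3 wild-type cultures of *Schizosaccharomyces pombe*, mapped to strain and replicate from the labels. The deposited file holds raw gene counts (whole numbers, no normalization), which the authors made with HISAT2 version 2.1.0 on the ASM294v2 build, SAMtools, and HTSeq version 0.10.0 over annotated exons (processing notes and methods). A deposited DESeq2 table with fold changes, *P* values, and strain averages was not used. Gene names, exon lengths, and neighbors came from the ASM294v3 annotation, paired by systematic ID for 6836 of 6988 features, and no coordinates or sequences are given because the builds differ. A planned search of promoters for motifs was not run for this reason.

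The quasi-likelihood test of edgeR version 4.0.16 in R version 4.3.3 was run on TMM-scaled counts after filterByExpr, and *P* values were adjusted over the 5947 genes kept (Benjamini-Hochberg). Standard errors were derived from the F statistic. The script was tested on simulated data. Libraries of a strain differed by more than sampling noise, and each counted as 1 replicate. Alternatives were RLE size factors, library totals, other filters, DESeq2 version 1.42.0, limma-voom (limma version 3.58.1), a block for replicate number, a fit of protein-coding genes alone, a fold cutoff of 1.5, no minimum mean count, TPM for RPKM, and leaving out each library. RPKM and TPM levels were compared without a test.

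The 5 genes and the lists were chosen with earlier results of these data known. The text names the 5 genes, the genes lowest in *P* value in each list (up to 4), flanking genes, and for each gene other than *ura4* the 3 genes of most similar pattern. *fur4* was named outside this rule, after its value was seen. Of the list entries *ura7*, *uck1*, *fur1*, *fui1*, and *fcy1* were not matched by name, CTP synthase was found by its product, and *cdc8* was left out because the annotation gives it as tropomyosin.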

Additional observations from a re-analysis of the deposited data

How the results depend on the processing

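*ura1* and *ura3* kept their direction under all 14 alternatives and an adjusted *P* value of at most 0.05 under 11, the exceptions being 3 of the fits that left out a library. *ura2* and *ura5* kept theirs and did not pass under any. Leaving out each library gave log2 fold changes of 0.37 to 0.51 for *ura1*, 0.02 to 0.14 for *ura2*, 0.42 to 0.56 for *ura3*, and 0.07 to 0.22 for *ura5*, and 0 to 2 of these genes passed. In the same fits 307 (without mutant replicate 3) to 1770 (without wild-type replicate 3) of all genes passed, against 735 with all libraries; such fits have fewer libraries, and the cause of the rise was not tested. The number called was 124 of all genes, 326 with a fold cutoff of 1.5, 214 with no minimum mean count, and the number called higher was 22, or 13 among protein-coding genes alone, where fewer genes were tested. The lower bound for *ura4* was 2701-fold, 2633-fold with library totals, and 2550- to 2801-fold leaving out a library. Replicate numbers did not pair the libraries (*r* of deviations −0.03, −0.03, and −0.06 for replicates 1, 2, and 3). With the replicate block the log2 fold changes were 0.44 for *ura1* (adjusted *P* value 0.00917) and 0.47 for *ura3* (0.00812) by edgeR, and 707 genes passed. Counts of 1347 to 29316 reads per library for these 4 genes gave a counting error of at most 2.50%. With 3 cultures per strain, the coefficients of variation on the TMM scale were 6.94 to 11.2%, above this. In RPKM, those of the wild-type were 0.803% for *ura3* and 2.30% for *ura2*, under counting errors of 1.005% and 2.496%. Those of *ura1* and *ura5* were 1.54% and 4.84%, above 0.757% and 1.49%. How far the spread in the test came from the cultures or from the scaling was not tested.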

Other observations

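The supply of PRPP and glutamine to the pyrimidine route was covered by 4 genes, and none passed the test (edgeR, adjusted *P* value of at most 0.05). The number that passed as lower depended on the setting. It was 2 with library totals, with protein-coding genes alone, and without wild-type replicate 1 or 3. With DESeq2 and with the replicate block it was 1. Over all genes, in either direction, 735 passed in the main fit. The settings with 2 lower gave 977, 651, 1327, and 1770, in the order named, and those with 1 lower gave 856 and 707. The PRPP synthetase gene *prs5* was at −0.38 on the log2 scale (95% interval −0.63 to −0.13, adjusted *P* value 0.0520), with every mutant library below every wild-type library. SPCC1620.06c, annotated as another PRPP synthetase, was at −0.30 (adjusted *P* value 0.0806). SPAC4A8.14, matched by the same product name, was at −0.01 (adjusted *P* value 0.962 from edgeR), and its libraries overlapped between strains. *gln1*, for glutamine synthetase, was at 0.11 (adjusted *P* value 0.466).

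Of the other marker genes of the background, *leu1* had 13582 to 13925 normalized counts in the mutant and 10202 to 12196 in the wild-type (log2 fold change 0.29, adjusted *P* value 0.0760 from edgeR). *his3* had 219 to 256 in the mutant and 204 to 294 in the wild-type. *ade6* had 5192 to 5922 in the mutant and 4365 to 5613 in the wild-type. *ura4* was the one auxotrophic marker gene of these 4 whose reads were present in one strain and absent from the other. The study's strain list also gives mutant alleles of *leu1*, *his3*, and *ade6* in the background of its strains. No marker labelled in the mutant carries these genes, so such a pattern was built into the strains for *ura4* alone.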
